A study of Mus musculus with 2 samples.

Results

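In mouse natural killer (NK) cells, 514 of the 919 promoter peaks of Aiolos (55.9%, exact Clopper-Pearson 95% interval 52.7 to 59.2) had their summit upstream of the annotated transcription start. The whole list held 1404 peaks, and 485 of them lay outside the promoter class of the authors' annotation. The 514 peaks were chosen by the position of the summit: the annotation had to be promoter within 1 kb, and the base of highest enrichment had to lie before the first base of the annotated transcript, read in the direction of the gene. The other 405 promoter peaks had their summit downstream of the start, and 0 summits fell on the start itself. The upstream peaks named 505 genes and the downstream peaks 399, and 15 genes had a peak on each side. Among protein-coding genes, 482 of 21900 (2.20%) had an upstream-summit peak. Since the position chose the peaks, the position values below are a description, and with 1 library no difference between the groups of peaks was tested.

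Aiolos, encoded by Ikzf3, is a zinc finger transcription factor of the Ikaros family, which is expressed in lymphocytes and binds DNA through a short core. The cells were splenic NK cells grown in medium with interleukin-15 at 50 ng/ml, and each sample had at least 500000 cells. The study made 2 CUT&RUN libraries from them, 1 with a primary antibody against Aiolos and 1 without a primary antibody. In CUT&RUN, micrococcal nuclease fused to protein A is held by the antibody at its target in permeable cells, and it releases the DNA around the bound protein. The labels give neither a strain, an age nor a genetic change for the mice, and they do not say how many mice were used. Fold enrichment is the authors' value, read as tags plus 1 over local background plus 1 at the summit. Every interval on a fold is the exact Poisson interval of its tags and covers counting error only. Duplicate reads of 1 molecule would make it too narrow.

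Transcription by RNA polymerase II starts at the edge of a stretch of DNA that active genes keep free of nucleosomes. Most of that stretch lies upstream of the start and holds the sites of general promoter factors such as the GC box, bound by Sp and KLF proteins, and the CCAAT box, bound by NF-Y. Many mammalian promoters are divergent: another gene starts nearby on the opposite strand and shares the same open stretch. A summit upstream of a start can therefore lie between a pair of genes, and a peak list credits it to 1 of them. Peaks report DNA near the protein and say nothing of whether a gene is expressed.

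The promoter sequences of 5 of the strongest upstream-summit peaks show what lies under such summits. Each run is the 250 bases before the RefSeq start of the gene on GRCm38.p6, the same assembly as mm10, on the strand of the gene and 5′ to 3′. Capitals mark the short Ikaros core, which reads GGGAA on the printed strand or TTCCC where it lies on the other strand. They come from chr7:19508371-19508620 (- strand), chr3:75557243-75557492 (+ strand), chr11:73199043-73199292 (- strand), chr17:48409750-48409999 (+ strand) and chr7:19310046-19310295 (- strand). These are the 5 members of highest fold whose summit lay in a RefSeq window at hand, and 4 of them are divergent promoters.
Bloc1s3: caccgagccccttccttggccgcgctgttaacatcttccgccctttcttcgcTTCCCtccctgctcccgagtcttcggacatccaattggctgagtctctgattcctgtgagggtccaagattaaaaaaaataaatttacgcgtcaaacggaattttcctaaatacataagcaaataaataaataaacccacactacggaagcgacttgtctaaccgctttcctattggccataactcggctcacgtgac
Serpini1: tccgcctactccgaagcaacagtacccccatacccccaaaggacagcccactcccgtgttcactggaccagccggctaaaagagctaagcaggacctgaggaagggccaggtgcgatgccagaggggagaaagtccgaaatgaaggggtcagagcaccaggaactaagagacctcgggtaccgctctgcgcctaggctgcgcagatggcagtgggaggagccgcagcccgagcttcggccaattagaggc
Ctns: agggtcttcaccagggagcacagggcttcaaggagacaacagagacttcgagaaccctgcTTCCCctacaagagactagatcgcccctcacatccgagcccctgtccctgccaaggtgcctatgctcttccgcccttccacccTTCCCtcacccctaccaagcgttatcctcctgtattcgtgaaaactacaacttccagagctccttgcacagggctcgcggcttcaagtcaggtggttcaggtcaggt
Oard1: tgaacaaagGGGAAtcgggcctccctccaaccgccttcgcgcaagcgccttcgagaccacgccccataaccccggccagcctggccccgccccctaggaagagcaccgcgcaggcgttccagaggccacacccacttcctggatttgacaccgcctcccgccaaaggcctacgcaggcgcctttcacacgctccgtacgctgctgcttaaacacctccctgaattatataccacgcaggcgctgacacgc
Fosb: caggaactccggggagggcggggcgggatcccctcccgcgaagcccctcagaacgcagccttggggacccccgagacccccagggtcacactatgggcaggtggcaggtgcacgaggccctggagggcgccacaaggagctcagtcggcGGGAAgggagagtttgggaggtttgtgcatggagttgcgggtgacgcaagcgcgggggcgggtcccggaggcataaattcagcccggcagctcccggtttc
The summit was base 89 of the Bloc1s3 run, base 47 of the Serpini1 run, base 13 of the Ctns run, base 96 of the Oard1 run and base 121 of the Fosb run. The Serpini1 run held no core, and the Ctns run held cores that start at -190 and -107 from the RefSeq start. The single cores of Bloc1s3, Oard1 and Fosb start at -198, -241 and -101.

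A core lay close to the summit in a minority of members. Of 164 summits with 20 bases on each side inside a RefSeq window, 22 (13.4%) held the short core within these 41 bases. The share of other 41-base stretches with a core was not counted. Around the 185 summits inside a window, the core was no denser near the summit. It had 3.54 matches per 1000 positions within 25 bp, 3.53 at 26 to 75 bp and 3.45 at 76 to 150 bp. The 5 of the 22 with the highest fold are printed to show how the core sits beside the summit, which is base 21 of each run. They were picked after their values were seen. They lie at chr4:135920480-135920520 (+ strand), chr7:6363071-6363111 (+ strand), chr14:54554448-54554488 (- strand), chr11:106216703-106216743 (+ strand) and chr11:69921547-69921587 (- strand).
Fuca1: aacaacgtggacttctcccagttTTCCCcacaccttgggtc
Zfp78: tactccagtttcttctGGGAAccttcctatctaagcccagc
Haus4: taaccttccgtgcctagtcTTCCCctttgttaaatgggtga
Ddx42: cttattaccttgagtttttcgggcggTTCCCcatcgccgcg
Eif5a: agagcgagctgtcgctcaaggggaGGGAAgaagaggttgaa
The middle of the core lay 2 bases upstream of the summit in Zfp78, which encodes a zinc finger protein. It lay 1 base downstream of the summit in Haus4, a part of the augmin complex of the spindle, and 5 bases downstream in Fuca1, a lysosomal fucosidase. In Eif5a, a translation factor, and Ddx42, an RNA helicase of the spliceosome, it lay 6 and 8 bases downstream. The folds of these peaks were 11.0 (Fuca1), 10.5 (Zfp78), 8.85 (Haus4), 8.83 (Ddx42) and 7.83 (Eif5a).

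The upstream summits sat mostly between 100 and 500 bp before the start. The median distance was 225.5 bp, with quartiles of 140.5 and 343 bp. By 50-bp steps, 39 summits lay within 50 bp of the start, 30 between 50 and 100 bp, 76 between 100 and 150 bp, 71 between 150 and 200 bp and 87 between 200 and 250 bp. A further 153 summits lay 250 to 500 bp upstream, 52 lay 500 to 1000 bp upstream and 6 lay beyond. The last 100 bp before the start thus held fewer summits than the stretch before it. The downstream summits were closer to the start, with a median of 111 bp and quartiles of 67 and 171 bp.

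**Figure D1:**
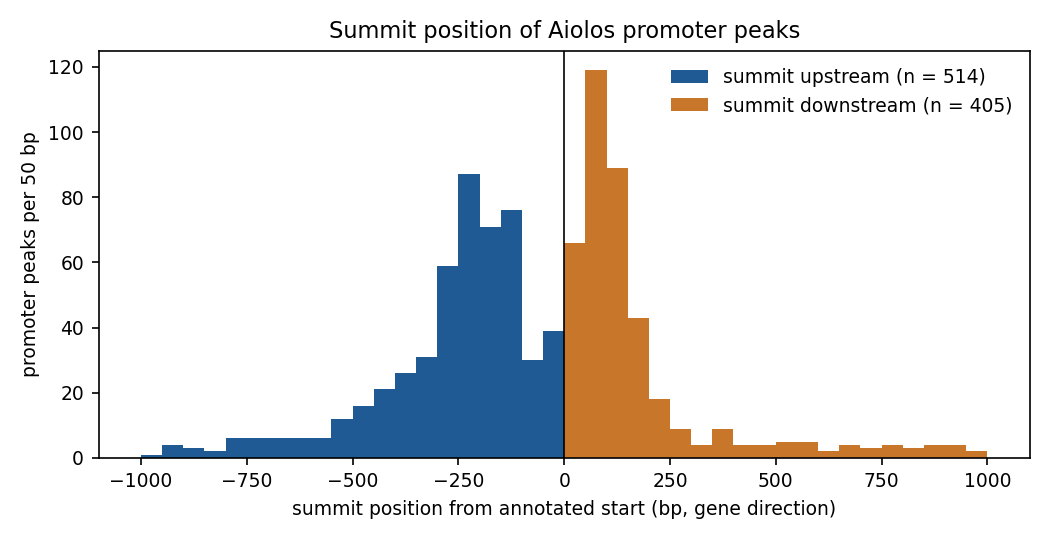
Histogram of the summit position of the 919 promoter peaks in bp from the annotated start (horizontal axis, gene direction, 50-bp bins, range limited to 1000 bp on each side) against the number of peaks (vertical axis), blue for the 514 upstream and orange for the 405 downstream summits. The upstream summits are highest at 200 to 250 bp before the start with 87 peaks and dip to 30 peaks at 50 to 100 bp.

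At the threshold itself, neighbouring members differed in position by a few bases. Just inside it were Rpl7, a protein of the large ribosomal subunit, and Hnrnph3, an RNA-binding protein, both with the summit 3 bp upstream, and Stat3, a transcription factor downstream of cytokine receptors, with the summit 5 bp upstream. Their folds were 7.59, 5.06 and 5.21. Just outside were Nrd1, a metalloendopeptidase, with the summit 2 bp downstream, and Zfas1 and Ankib1, each with the summit 3 bp downstream. Their folds were 7.47, 6.57 and 5.06, so the line through the start divided peaks of like strength. The 3 summits farthest upstream were those of Crlf2, the receptor of thymic stromal lymphopoietin, at 1914 bp, Padi2, a peptidylarginine deiminase, at 1252 bp, and Tspoap1 at 1245 bp.

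The side also depended on which transcript the authors' annotation took. A RefSeq start of the same gene was at hand for 433 of the 514 peaks, and it lay within 100 bp of the annotated start for 336 (77.6%) and at the same base for 127. The summit was upstream of the nearest RefSeq start in 393 of the 433 (90.8%) and upstream of every RefSeq start of the gene in 369 (85.2%). Among the downstream-summit peaks, 74 of 337 (21.96%) had their summit upstream of the nearest RefSeq start. With RefSeq starts in place of the annotated ones, an alternative added after seeing the data, the upstream share was 60.6%.

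Upstream and downstream summits were of about the same strength. The median fold of the upstream peaks was 6.47 (order-statistic 95% interval 6.32 to 6.75, n = 514), with quartiles of 5.41 and 8.20 and a range of 3.63 to 23.3. The downstream peaks had a median of 6.73 (6.44 to 6.84, n = 405) with quartiles of 5.58 and 8.43, and peaks outside promoters had a median of 5.90. These intervals take peaks as independent draws from 1 library, and those of the promoter groups overlap. Which group had the higher median changed among the stronger peaks, where the upstream median was the higher by 0.0326 at or above the median -log10 q and by 0.132 above the median fold. From the lowest to the highest quartile group of promoter peaks by fold, the upstream share was 57.6%, 56.2%, 54.2% and 55.7%, near the 55.9% of all promoter peaks.

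**Figure D2:**
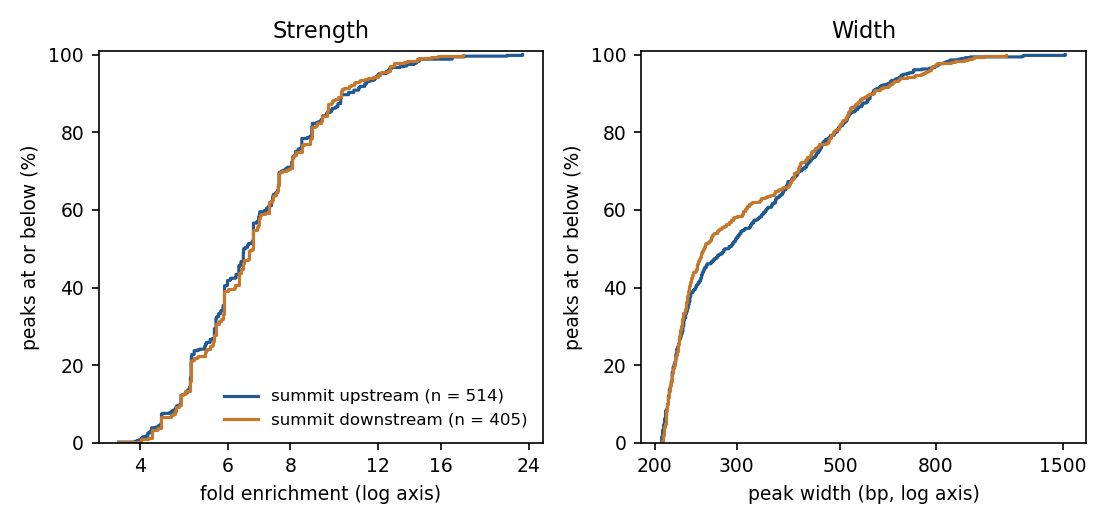
Cumulative share of peaks (vertical axis, percent at or below) by fold enrichment (left, log axis) and by width in bp (right, log axis), blue for the 514 upstream and orange for the 405 downstream summits. The fold curves run together, with medians of 6.47 and 6.73, and the width curves part between about 230 and 400 bp, with medians of 285.5 and 255 bp.

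Few tags stood behind each peak. At an upstream summit there were between 4 and 32 tags, at a median of 8.5, and 341 of the 514 (66.3%) rested on 10 tags or fewer. The 514 peaks took only 177 distinct folds, and 26 of them shared the fold of 5.90. A fold of 10 or more was reached by 65 upstream peaks (12.6%, 9.90 to 15.8) and 44 downstream peaks (10.9%, 8.01 to 14.3). Of the 20 strongest promoter peaks 13 were upstream, of the 50 strongest 28 and of the 100 strongest 58.

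The median fold differed between classes of distance without a steady trend. Peaks with the summit 150 to 200 bp upstream had the highest median fold of the distance classes, 7.53 (6.60 to 7.83, n = 71), and 14 of them (19.7%) reached a fold of 10. The median was 6.91 at 200 to 250 bp (n = 87) and 6.75 at 250 to 500 bp (n = 153). Farther out it was 6.55 (5.87 to 7.33, n = 52) at 500 to 1000 bp, where 7.69% reached a fold of 10, and 5.86 beyond 1000 bp (n = 6). Nearer the start it was 5.95 at 100 to 150 bp, 5.63 (5.06 to 5.80, n = 30) at 50 to 100 bp and 5.90 (5.07 to 6.75, n = 39) within 50 bp, where 1 of 39 peaks (2.56%) reached a fold of 10. Across the 514 peaks the order of fold and distance were nearly unrelated, with a Spearman rho of 0.090 and a Pearson r of 0.0082 for log fold. These correlations describe peaks of 1 library, and fold and summit position come from the same tags.

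The strongest member lay at Cdca3, which encodes a regulator of entry into mitosis. Its peak at chr6:124829147-124830073 (mm10) had a fold of 23.3 (15.8 to 33.4) from 28 tags, with the summit 236 bp upstream of the annotated start. From the nearest RefSeq start of Cdca3, the summit lay at -865 bp. The next member was Hnrnpl, a splicing regulator, at chr7:28810306-28810661 with a fold of 21.7 (14.5 to 31.5) from 26 tags and the summit 409 bp upstream. Coro1c, a coronin that binds actin, at chr5:113908894-113909232, had a fold of 17.8 (11.5 to 26.6) with the summit 301 bp upstream. Because each interval is wide, the order among these 3 is not resolved by the counts.

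The next genes by fold had a range of roles. Ap1m1, a subunit of the clathrin adaptor at the trans-Golgi network, and Bloc1s3, a subunit of a complex that builds lysosome-related organelles, each had a fold of 16.9 (10.5 to 25.9) from 19 tags. Their peaks were at chr8:72239673-72240345 and chr7:19508233-19508656, with summits 187 and 165 bp upstream. Ctns, the lysosomal cystine exporter, had a fold of 13.7 (8.17 to 21.7) with the summit 238 bp upstream. Mtmr4, a phosphoinositide phosphatase of endosomes, had a fold of 14.5 (8.78 to 22.7) with the summit 164 bp upstream, and Serpini1, a secreted protease inhibitor known from neurons, had the same fold at 258 bp.

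The other genes among the strongest also had varied roles. Fbxo5, which restrains the anaphase-promoting complex, and Srrm1, a splicing coactivator, each had a fold of 14.3 (8.56 to 22.8) from 16 tags, with summits 235 and 196 bp upstream. Mob3a, of the MOB family of kinase partners, had a fold of 14.2 with the summit 551 bp upstream. Egr1, an immediate-early zinc finger factor, had a fold of 14.1 (8.90 to 21.5) at 219 bp, and Oard1, an enzyme that removes ADP-ribose groups, had 13.7 at 169 bp. Fosb, a subunit of the AP-1 transcription factor, had 13.5 (8.38 to 20.7) from 19 tags at 124 bp, in a peak at chr7:19310073-19310311. Of these 14 genes, 13 had the summit between 124 and 409 bp upstream, and Mob3a lay farther out.

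Upstream peaks were somewhat wider at the median. Their median width was 285.5 bp (258 to 306), with quartiles of 225 and 448.75 bp and a range of 207 to 1517 bp. The downstream peaks had a median of 255 bp (246 to 275) and quartiles of 224 and 434 bp. At the narrow end 30.2% of upstream and 33.3% of downstream peaks were at most 230 bp wide, and 8.75% and 9.14% were at least 600 bp wide. The medians thus parted in the middle of the range, where the curves of the plot of strength and width separate. The difference of 30.5 bp (95% interval -3.50 to 52.9) had an interval above 0 in 5 of 8 alternatives and became 55 bp (29.4 to 86.3) when the centre of the peak in place of its summit gave the side.

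The widest upstream peak lay at Crlf2 with 1517 bp and a fold of 6.45. It was followed by Plec, the cytoskeletal linker plectin, with 1236 bp and a fold of 10.1, and by Grk6, a kinase of G protein-coupled receptors, with 1227 bp and a fold of 6.31. Rita1, a regulator of Notch signalling and tubulin, had a peak of 949 bp with a fold of 12.4, and the peak at Cdca3 spanned 927 bp. Width rose only weakly with fold across the 514 peaks, with a Spearman rho of 0.16 and a Pearson r of 0.20 for log fold. Both measures come from the same tags.

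Most upstream peaks ended before the gene began. The peak overlapped the annotated start in 187 of 514 (36.4%, 32.2 to 40.7), against 291 of 405 downstream peaks (71.9%, 67.2 to 76.2). The upstream summits were also farther from the start, which the choice by position allows but does not set. The strongest genes showed both forms. The peaks at Cdca3, Ap1m1, Bloc1s3 and Mtmr4 ran across the annotated start. The edge of the peak stopped 229 bp short of the annotated start at Hnrnpl, 136 bp at Coro1c and 22 bp at Fosb. At Cdca3 the nearest RefSeq start lay 629 bp downstream of the annotated one, and the peak did not reach it.

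Divergent neighbours were counted from RefSeq starts. A neighbour was another gene that starts on the opposite strand within 1000 bp upstream of the annotated start. Of 501 upstream-summit peaks on chromosomes in the RefSeq promoter table, 91 (18.2%, 14.9 to 21.8) had one, against 93 of 396 downstream-summit peaks (23.5%, 19.4 to 28.0). Over all protein-coding RefSeq starts the share was 12.3% (2609 of 21263), counted from the RefSeq start of each gene and not from an annotated start. Both groups of promoter peaks were thus above the background of all genes. The upstream share was 5.32 percentage points lower than the downstream one, and the 95% interval of the difference, upstream minus downstream, ran from -10.9 to 0.167. That interval excluded 0 under 3 alternatives, at -10.9 to -0.500 with neighbours within 500 bp, -11.2 to -1.21 with protein-coding neighbours only and -12.8 to -1.62 with the centre in place of the summit. It takes peaks as independent draws from 1 library. The table is not complete, so each share is a lower bound. The side of a summit and its neighbour are also not independent, since a summit far upstream may be credited to the neighbour.

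The neighbour was protein-coding in 63 of the 91 and a long non-coding RNA in 28. With protein-coding neighbours only, the share was 12.8%, and with neighbours within 500 bp it was 14.6%. The 12.3% of all protein-coding starts counts neighbours of either class within 1000 bp, so it is not the background of these narrower shares. Of the 2609 starts behind it, the nearest neighbour was protein-coding in 1693. The starts of a pair lay a median of 272 bp apart (241 to 303), against 212 bp (167 to 254) for the downstream peaks. Over the 2609 protein-coding RefSeq starts with a neighbour of either class the median was 156 bp. The peak groups were measured from the annotated start and the 156 bp from RefSeq starts, so these are not like measures. The neighbour was itself credited with a peak in 1 of 91 pairs, which was Cbx5, the divergent partner of Hnrnpa1. For the downstream peaks this was 5 of 93. Of all protein-coding genes 5.38% had a peak of any kind, and a peak within a pair is credited to only 1 of its genes.

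Within the pairs the summit lay between both starts in 64 of 91 (70.3%, 59.8 to 79.5) and past the start of the neighbour, inside its transcribed part, in 27 (29.7%). In 49 of 91 (53.8%) the summit was nearer to the start of the neighbour than to the annotated start of the gene named. By annotated starts, these 49 peaks carry the name of the gene whose start is farther away. A RefSeq start of the gene named can lie nearer, as at Higd1a, where the summit was 14 bp from such a start. Where the summit was past the start of the neighbour, it lay a median of 135 bp into it. The whole peak covered both starts in 28 pairs (30.8%), against 5 of 93 pairs (5.38%) with a downstream summit. Since the neighbour lies upstream, a downstream-summit peak must reach back across its own start to cover both. This contrast thus follows at least in part from the choice by position.

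**Figure D3:**
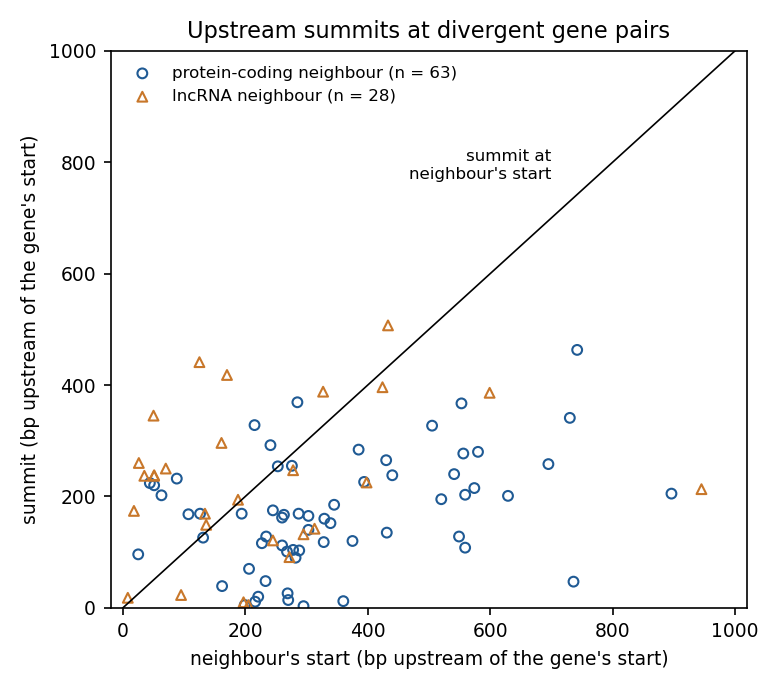
Each point is 1 of the 91 upstream-summit peaks with a divergent neighbour: horizontal axis, distance from the annotated start of the named gene to the start of the neighbour in bp; vertical axis, distance to the summit in bp. Blue circles are the 63 protein-coding and orange triangles the 28 long non-coding neighbours, and the 27 points above the line have the summit past the start of the neighbour.

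Members with a divergent neighbour differed from the other members in width and position more than in strength. Their median fold was 6.75 (6.23 to 7.37, n = 91), against 6.44 (6.31 to 6.75, n = 410) without a neighbour, and 13.2% and 12.2% reached a fold of 10. Their median width was 364 bp (313 to 419) against 268.5 bp (251 to 299). The summit was a median of 174 bp upstream (152 to 215) against 235.5 bp (219 to 252). The peak overlapped the start in 63.7% of the divergent members and in 31.0% of the others. These differences were not tested.

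The share with a divergent neighbour was highest next to the start. It was 14 of 39 (35.9%, 21.2 to 52.8) within 50 bp and 4 of 29 (13.8%) at 50 to 100 bp. In the next 3 steps of 50 bp it was 22.7%, 21.7% and 22.2%. At 250 to 500 bp it was 22 of 150 (14.7%), and at 500 to 1000 bp it was 1 of 52 (1.92%). It was 0 of 6 beyond 1000 bp. A summit far upstream of a gene may be credited to its neighbour, and neighbours were counted only within 1000 bp. The share at each distance thus depends on how peaks are credited, and the part of this in the fall was not tested.

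The strongest divergent members included Bloc1s3, whose neighbour Trappc6a, a subunit of the TRAPP trafficking complex, starts 303 bp upstream of its annotated start. Its summit at 165 bp lay near the middle of the pair. Serpini1 was paired with Pdcd10, a cell death and endothelial integrity gene, over 695 bp, and Ctns with Shpk, a kinase of sedoheptulose, over 440 bp. Oard1 was paired with Nfya, a subunit of the CCAAT-binding factor NF-Y, over 194 bp. Camkmt, a calmodulin lysine methyltransferase, had a fold of 12.8 (7.86 to 19.8) and was paired with Prepl over 278 bp. In each of these 5 pairs the summit lay between both starts.

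Other pairs had the summit past the neighbour. The strongest were Abhd2, a hydrolase, with a fold of 11.9 (7.57 to 17.9) and the summit 418 bp upstream, where Gm31510, a long non-coding RNA, starts at 170 bp, and Hnrnpk, an RNA-binding protein, with a fold of 11.8 (6.68 to 19.6) and the summit 168 bp upstream, where Rmi1, a genome stability gene, starts at 107 bp. These pairs were picked with their values known. The 4 weakest divergent members were Wdr83os with Wdr83 (fold 4.19 from 4 tags), Srgap2 with Fam72a (4.19 from 13 tags), Cnot3 with Gm15927 (4.21 from 18 tags) and Parp3 with Rrp9 (4.40 from 5 tags). Wdr83os and Srgap2 had like folds at different tag counts, over a local background of 0.194 and 2.34 tags.

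The upstream peaks were nearly all at protein-coding genes. There were 491 of 514 (95.5%), with 19 at long non-coding RNAs and 4 at other classes, against 376, 21 and 8 of the 405 downstream peaks. The strongest non-coding member was Snord13, a small nucleolar RNA, with a fold of 14.5 (9.33 to 21.6) from 22 tags and the summit 68 bp upstream. The long non-coding RNAs Gm19510 and 4932412D23Rik followed with folds of 12.5 and 11.8. Lockd, which lies near the cell cycle inhibitor Cdkn1b, had a fold of 10.1 at 491 bp, and Neat1, the scaffold of nuclear paraspeckles, had 9.43 at 225 bp.

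A few genes had more than 1 upstream peak or peaks on both sides. Hnrnpl had peaks 409 and 106 bp upstream with folds of 21.7 and 4.65 and a downstream peak with 4.83. Bbc3, which encodes the apoptosis inducer PUMA, had folds of 11.98 at 421 bp and 4.83 at 18 bp from the same annotated start. The summit of the stronger Bbc3 peak lay 2665 bp downstream of the nearest RefSeq start of the gene. Gadd45b, a stress response gene, had 7.33 at 356 bp and 4.02 at 761 bp. Rhoq, Mast3, Gatad2a, Trp53i13, Maff and Per1 also had upstream peaks at more than 1 place. Among the 15 genes with peaks on both sides were the histone genes H4c14, H4c1 and H2bc14, the splicing genes Hnrnpa1, U2af2 and Luc7l2, and the clock gene Per1. Such peaks can refer to different transcripts of a gene.

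Gene groups are given as counts beside the 55.9% upstream share of all promoter peaks and the 2.20% of protein-coding genes with an upstream-summit peak. They were not tested, and some overlap. Among AP-1 genes, 2 of 12 had such a peak: Fosb, described above, and Junb, another AP-1 subunit, with a fold of 3.98 (1.74 to 8.39) from 5 tags at 81 bp. The other bZIP factors had 4 upstream peaks of 9 promoter peaks. They were at Nfe2l2, the oxidative stress regulator NRF2, with 6.75 (3.22 to 13.0), at Maff with 5.68 and 5.06, and at Creb1, the cyclic AMP response factor, with 5.05. Only the fold of Fosb among these lay above the upper quartile of all upstream peaks.

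Immediate-early genes, which cells switch on within a short time of a stimulus without new protein, had upstream summits in 7 of 8 promoter peaks (87.5%, 47.3 to 99.7). These were 7 of the 25 genes in the list. After Egr1 came Klf10, a repressor induced by transforming growth factor beta, with a fold of 9.46 (5.46 to 15.4) and Zfp36l1, which speeds the decay of AU-rich mRNA, with 8.72 (4.93 to 14.5). Dusp6, a phosphatase of ERK kinases, had 7.75, Klf6 6.06, Dusp1 5.99 and Zfp36 4.14. Zfp36l2 alone had its summit downstream. The 4 highest of the 7 folds lay above the upstream median of 6.47 and the 3 lowest under it.

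In the lists of NK lineage factors and NK function, 0 or 1 gene each had an upstream summit, which at their size is near the 2.20% of all protein-coding genes. Among 28 lineage factors it was 1 (3.57%), Runx1, a subunit of core binding factor in lymphocyte development. Its fold was 6.95 (3.76 to 11.97) from 11 tags at 38 bp, and Irf2, Runx3 and Irf8 had downstream summits. Of 34 NK receptors and adaptors 0 had one, as did 0 of 26 cytotoxic and cytokine genes and 0 of 25 integrins and trafficking receptors. Among 34 cytokine receptor and JAK-STAT genes it was Stat3 (2.94%). In the NFAT and NF-kB list it was 1 of 22 genes (4.55%), Nfat5 with 4.41. In the apoptosis list it was 1 of 25 (4%), Bbc3, as judged from its annotated start. The stronger Bbc3 summit lay downstream of the nearest RefSeq start. The clock list had a higher share of genes, with 2 of 15 (13.3%), Per1 with 8.05 and 4.98 and Bhlhe40 with 4.83. By peaks, 3 of its 6 promoter peaks (50%) were upstream, beside 55.9% of all promoter peaks. The Per1 summit of fold 8.05 lay at -3978 bp from the nearest RefSeq start of the gene.

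The labelled cell type could be set only against which marker genes had a peak, since a peak is not expression. Of all protein-coding genes, 5.38% had a peak of any kind and 3.82% a promoter peak on either side. Of 9 NK marker genes 3 (Klrb1c, Gzmb and Il2rb) had a peak of any kind, and 0 had an upstream-summit promoter peak. Of 5 T cell markers 1 (Cd5) had a peak of any kind, and of 3 B cell and 2 myeloid markers 0 did. In the longer lists of markers of T cells, B cells, myeloid cells and erythroid cells or platelets, 0 genes had a promoter peak on either side. The same was true of the 5 Ikaros family genes. In lists of this size a count of 0 is near the share of all genes.

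**Figure D4:**
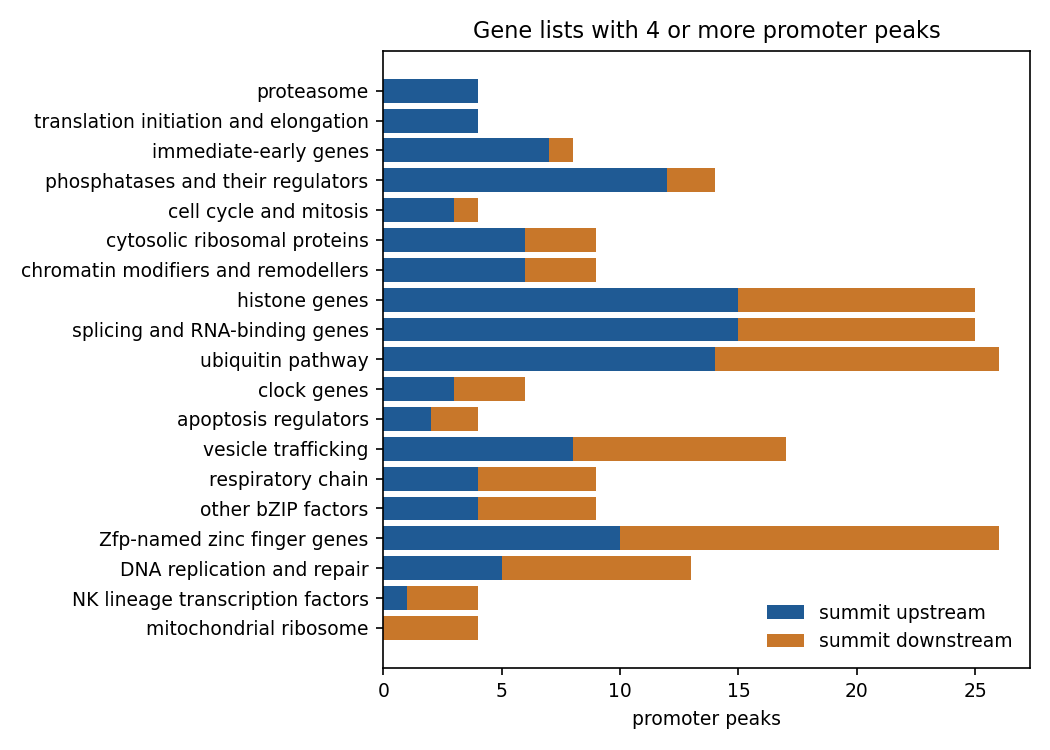
Number of promoter peaks (horizontal axis) with the summit upstream (blue) or downstream (orange) for the 19 gene lists with at least 4 promoter peaks (vertical axis), ordered by upstream share. All 4 proteasome and 4 translation gene peaks were upstream and all 4 mitochondrial ribosome peaks downstream, beside 55.9% upstream among all promoter peaks.

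Genes of basic cell functions were counted in the same way. Histone genes had 15 upstream summits of 25 promoter peaks (60%), at 15 of 112 histone genes, led by H3c11 with a fold of 11.0, H3c1 with 10.1, H4c14 with 9.96 and H3c4 with 9.71. Histone genes are near-identical copies in clusters, so tags from 1 copy may be placed at another. Splicing and RNA-binding genes also had 15 of 25. They were led by Hnrnpl, Srrm1 and Hnrnpk, and then by Hnrnpa1 with 9.96 (5.85 to 16.03). The median fold of these 15 splicing peaks was 8.08 and that of the histone peaks 7.57, beside 6.47 for all upstream peaks.

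In protein synthesis, cytosolic ribosomal proteins had 6 of 9 promoter peaks upstream, led by Rpl10 with 9.21 (5.73 to 14.1) and Rpl7 with 7.59. In the list of translation genes, all 4 promoter peaks were upstream. They were at Eif4enif1, which carries the cap-binding protein into the nucleus, with 12.6 (7.25 to 20.5), Eif5a with 7.83, Eef1a1 with 4.98 and Eef1d with 4.93. The tRNA synthetases Vars and Farsb had upstream summits with 10.7 and 6.06, and Wars2 a downstream one. All 4 promoter peaks of mitochondrial ribosome genes were downstream. The respiratory chain had 4 of 9 upstream, led by Atp5l with 6.44 and Ndufv1 with 5.90. With 4 peaks a list, the exact interval of such a share runs from 39.8% to 100% for the translation genes and from 0% to 60.2% for the mitochondrial ribosome.

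In protein breakdown, all 4 proteasome peaks were upstream, at Psmd5 with 8.43 (4.31 to 15.2), Psmd3 with 5.53, Psme2 with 5.26 and Psmb3 with 5.07. The ubiquitin pathway had 14 of 26, led by Fbxo5, Fbxo47 with 12.6, Cul3, a scaffold of ubiquitin ligases, with 7.59, and Rnf5 with 7.37. Phosphatases and their regulators had 12 of 14 (85.7%, 57.2 to 98.2), led by Mtmr4, Ppp1r12c with 8.20, Dusp6 with 7.75 and Ppp6r3 with 7.47. Dusp1 and Dusp6 are in the immediate-early list as well. The median fold of the 12 phosphatase peaks was 5.98, against 6.47 for all upstream peaks.

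Vesicle trafficking genes had 8 upstream summits of 17 promoter peaks with a median fold of 10.02. They were led by Ap1m1 and Bloc1s3, then Sec11c, a signal peptidase subunit, with 13.2 (8.33 to 20.1) and Rab40c with 11.98. Chromatin genes had 6 of 9, led by Kdm5a, a histone H3 demethylase, with 9.94 (6.33 to 14.96), then Gatad2a, a subunit of the NuRD complex with which Ikaros proteins are known to associate, with 7.59 and 6.75, and Kmt2a with 7.17. Cell cycle genes had 3 of 4: Cdca3, Fbxo5 and Cdkn2d with 6.31. Zfp-named zinc finger genes had 10 of 26 (38.5%, 20.2 to 59.4), led by Zfp78 with 10.5, Zfp524 with 9.65 and Zfp263 with 8.83. DNA replication and repair genes had 5 of 13 (38.5%), with Ercc1 at 7.10 and Rad23b at 5.80, and both Snhg genes with a promoter peak, Snhg10 and Snhg5, were upstream with 6.60 and 5.41.

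Base composition and motifs were read in RefSeq windows of 300 bases around the start, for the 336 upstream-summit and 233 downstream-summit peaks with a RefSeq start within 100 bp. Of the upstream windows, 7 were also counted downstream, since their genes had peaks on both sides. All motifs were searched on both strands. The upstream windows had a median GC content of 61.3%, against 59.0% for the downstream and 56.3% for all 21263 protein-coding windows. The ratio of observed to expected CpG was 0.826, 0.808 and 0.567. Both groups of promoters with a peak were thus richer in CpG than protein-coding promoters at large, and differed little from each other.

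The GC box GGGCGG was in 72.3% of upstream windows (67.2 to 77.0), 65.7% of downstream windows and 46.2% of protein-coding windows. The CCAAT box CCAAT was in 53.0%, 51.5% and 38.2%, and the ETS core CCGGAA in 27.7%, 26.6% and 18.7%. All 3 were more frequent in both groups of promoters with a peak than among protein-coding windows. The short Ikaros core GGGAA was in 65.2% (59.8 to 70.3) of upstream windows, 67.0% (60.5 to 73.0) of downstream windows and 63.0% of protein-coding windows. Its longer form TGGGAA, which contains it, was in 19.9% (15.8 to 24.6), 28.3% (22.6 to 34.6) and 24.5%. The shares of the short core thus lay near the background in both groups. Over all 32851 windows of the table, the shares were 35.7% for the GC box, 37.4% for the CCAAT box, 14.9% for the ETS core, 62.7% for the short core and 25.6% for the longer one.

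Along the promoter, GC and CCAAT boxes were densest nearer the start than most summits were. GC boxes of the upstream windows were densest in the last 50 bp before the RefSeq start, with 11.0 matches per 1000 positions, and CCAAT boxes at -100 to -51 with 6.25. Only 13 of the 185 summits inside a window fell at -100 to -51, while 56 fell at -250 to -201. Around these 185 summits, GC box density rose from 2.88 per 1000 positions within 25 bp of the summit to 4.46 at 26 to 75 bp and 6.58 at 76 to 150 bp. CCAAT density rose from 2.43 to 3.26 and 4.10. The short Ikaros core was level, with 3.54, 3.53 and 3.45. Since windows end near the start, larger distances from a summit lie more often next to the start, and the part of this in the rise was not tested.

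**Figure D5:**
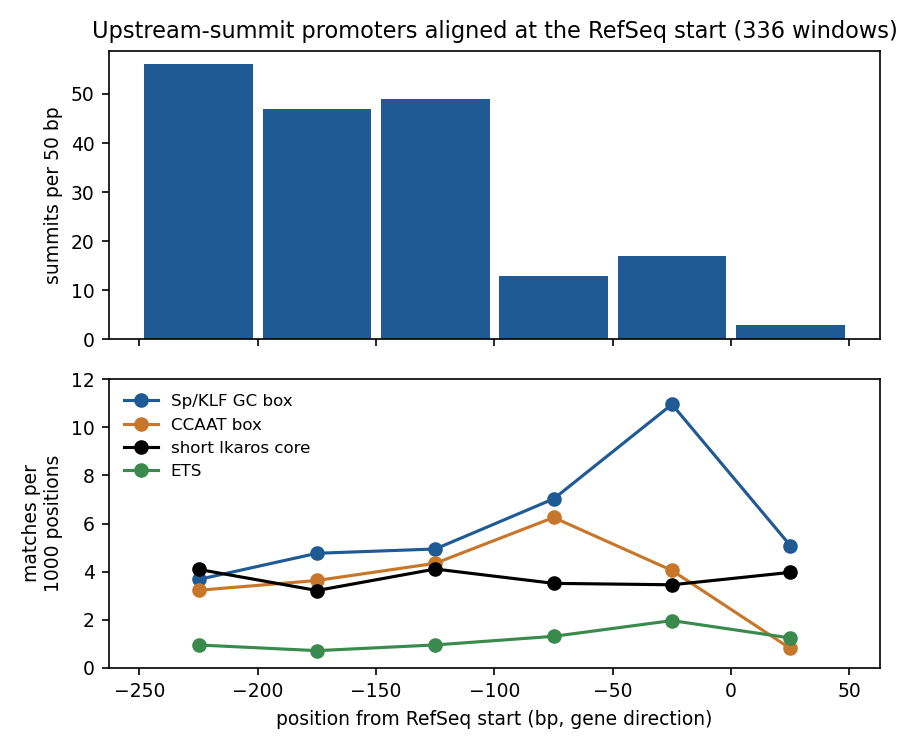
Upper panel: number of upstream summits per 50 bp by position from the RefSeq start (horizontal axis, bp) in the 336 windows, of which 185 hold the summit. Lower panel: matches per 1000 positions of the GC box (blue), CCAAT box (orange), short Ikaros core (black) and ETS core (green) in the same windows. Summits are most frequent from -250 to -101, where the GC box density is under 5 per 1000, and the GC box reaches 11.0 in the last 50 bp.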

How the data were processed

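CUT&RUN was done with 1 library per group, so there are no replicates and no test between groups, and the starting point was the 1 peak list deposited for the series. The submitters' processing notes name MACS2, Bowtie2 1.3.0, Picard, SAMtools and the mm10 build with no role or order. How duplicates were filtered, at which q peaks were cut and whether the library without antibody served as control is not given in the sources used here. Per the file headers, the deposited values are a signal value, read as the fold (ratio) of MACS2, the -log10 of the p-value and q-value, a score, the summit, the width and the annotated transcript. The deposited score equals 10 times the -log10 q without decimals in 1404 of 1404 peaks. Whole tags and the local background were solved from the fold and -log10 p of each peak, with an error of at most 1.75e-05.

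The summit is the peak start plus the authors' offset. Starts on the opposite strand, motifs and sequences came from the RefSeq promoter table of GRCm38.p6 (32851 windows of 300 bases for 27025 genes, none on chromosome 18), and gene classes from the RefSeq gene table, in which 514 of 514 identifiers matched. Shares have exact Clopper-Pearson and medians order-statistic intervals at 95%. Scripts ran in Python 3.11.15 with numpy 2.4.6, pandas 2.3.3 and scipy 1.17.1, and their counting of sides, neighbours and motifs was tested on simulated data. The members, the 33 gene lists and the 14 motifs were chosen with earlier results of these data known, and the patterns of the histone, ubiquitin and phosphatase lists were corrected after the files were read, to drop MHC and coatomer genes.

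The text names the 15 protein-coding genes of highest fold, up to 4 genes a list, the 5 widest peaks, the 6 strongest and 4 weakest divergent members, genes with more than 1 member, the 3 peaks nearest the start on each side, the 3 farthest and 5 non-coding genes. A gene that this rule names is not reported here, without replacement. Alternatives were stricter strength thresholds, the centre in place of the summit, other distance and neighbour windows, 1 peak a gene, tags in place of fold, the longer core and, added after seeing the data, RefSeq starts.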

Additional observations from a re-analysis of the deposited data

How the results depend on the processing

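With 1 library per group, and 4 to 32 tags at an upstream summit, depth limits every fold, and stronger and weaker peaks can be told apart only over wide gaps. The median fold difference, upstream minus downstream, of -0.259 turned to 0.0326 among peaks whose -log10 q reached the median and to 0.132 among peaks above the median fold, where the upstream median itself was 8.08 and 8.20 in place of 6.47 because weak peaks were left out. In tags in place of fold the difference was -0.5. The width difference of 30.5 bp was 55 bp with the centre in place of the summit. The divergent share of 18.2% was 14.6% with neighbours within 500 bp and 12.8% with protein-coding neighbours only, as the definitions are narrower. The upstream share of 55.9% was 60.6% with RefSeq starts, an alternative chosen after seeing the data that covers 770 peaks. The cause of the other shifts was not tested. The difference in the divergent share, -5.32 points, kept its direction in 12 alternatives, with an interval that excluded 0 in the 3 given in the report. The difference in the share with the core, -1.77 points for GGGAA, kept its direction in 9, but was -8.39 (-15.9 to -1.02) with TGGGAA. The other 10 alternatives for the divergent share and 8 for the upstream median width kept within the interval of the value reported. No paired analysis was possible because each group has 1 library and no result comes from a test.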

Other observations

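Some motifs of basal or signal-driven transcription differed in frequency between the sides, in the same RefSeq windows and on both strands. The TATA box TATAAA, which positions the polymerase at some genes, was in 32 of 336 upstream-summit windows (9.52%, exact 95% interval 6.61 to 13.2), 11 of 233 downstream-summit windows (4.72%, 2.38 to 8.29) and 12.6% of protein-coding windows. Histone genes held it in 7 of 13 upstream-summit windows and 3 of 7 downstream ones, and without them the shares were 7.74% (25 of 323) and 3.54% (8 of 226). Upstream-summit promoters with the box included H3c11, H3c4, Jarid2, Polr2a and Zfp36l1. The H4c1 window, which holds the box, counts in both groups. The box started 20 to 40 bp before the RefSeq start, its usual place, in 8 of the 336 windows and 3 of the 233. This was not counted over all protein-coding windows. Of the promoters named here, H3c4, Jarid2, Polr2a and Zfp36l1 had a match in that place. The match of H3c11 started 147 bp before the RefSeq start and that of H4c1 41 bp after it.

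The cyclic AMP response element TGACGTCA and the NRF1 site GCATGCGC leaned the other way. The first was in 9 of 336 upstream-summit windows (2.68%, 1.23 to 5.02), 18 of 233 downstream-summit windows (7.73%, 4.64 to 11.9) and 2.23% of protein-coding windows. Upstream members with it included Ppp1r12c, Snrpa, Dusp1 and Maff. The H4c1 window, with peaks on both sides, counts in both groups. The second was in 5.95% (3.67 to 9.04), 9.87% (6.36 to 14.4) and 3.52%. The AP-1 site TGANTCA was in 5.06% of upstream-summit, 5.15% of downstream-summit and 6.99% of protein-coding windows, with matches at H2bc13 and Zfp36l1 among the members and at Hnrnpa1, which counts in both groups. None of these differences was tested, and they are 4 of 14 motifs searched, picked after their values were seen.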
